A study of Mus musculus with 24 samples.

Results

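The regions described here are 2779 stretches of liver chromatin that were called as H3K27ac peaks in males of both mouse strains studied and in females of neither. They were found by merging overlapping peaks (1 bp or more) of 4 deposited lists, 1 per strain and sex, into 117616 autosomal union regions, and by keeping those with a peak in both male lists and in neither female list. The members were therefore chosen by the peak calls themselves, so their presence in male lists and absence from female lists is a description and carries no test. They made up 2.36% of the union regions, and nothing is read from that share. The mirror class, called in both female lists and neither male list, held 1413 regions.

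The study mapped sex differences in liver regulatory elements in B6 (C57BL/6J) mice, a common inbred strain, and in CAST (CAST/EiJ) mice, an inbred strain derived from wild Mus musculus castaneus. The samples were 20 livers from 8-week-old mice in 4 groups of 5 (B6 male, B6 female, CAST male, CAST female) and 4 input controls, 1 per group, and the labels give no treatment or engineered allele for any group. Groups were taken from the sample titles, because another field of the labels gives CAST as the strain of all females and B6 as that of all males. Each list pools the 5 livers of its group, so no value below has a spread between replicates, and an interval covers counting error only. Reads of CAST livers were mapped to a genome of that strain and then lifted to mm9, so the folds of the strains come from different alignments and inputs.

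H3K27ac, acetylation of lysine 27 on histone H3, marks active promoters and enhancers. In rodent liver many genes differ between the sexes because the pituitary releases growth hormone in pulses in males and almost continuously in females, which activates the transcription factor STAT5 in a pulsed or a persistent manner. The repressors BCL6, higher in male liver, and CUX2, found in female liver, act on STAT5-responsive genes, and the products include cytochromes P450, pheromone-binding major urinary proteins and complement components.

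Windows of 300 bases around the summit of the higher-scoring male peak are shown for 7 regions that the results below return to. All are on the plus strand of mm9 (NCBIM37), written 5′ to 3′ in lower case, and none overlaps an annotated untranslated region of a coding transcript. The C4a window overlaps an exon of a transcript of the neighbouring gene Stk19. Capitals mark exact matches, on either strand, to any of 6 short motifs: TTCNNNGAA for STAT5, TGTTTAC or TGTTTGC for FOXA, CAAAGTCCA for HNF4A, ATCGAT or ATTGAT for HNF6 or CUX2, TTGCNNAA for CEBP, and GTTAATNAT for HNF1. The motifs were searched one by one, so a base can belong to matches of more than one. The first window is that of the highest-ranked region, 83.2 kb upstream of Sox13. The others lie at genes known for male-biased expression in mouse liver, in the case of C4a only in some strains. They are in an intron of Moxd1, 47.2 kb upstream of C6, 2.17 kb upstream of C4a, 10.3 kb upstream of Cyp7b1, 0.408 kb upstream of Elovl3 and 5.27 kb downstream of the outermost start of Selenbp2. The Selenbp2 region is 2.03 kb from the nearest coding start of that gene.
Sox13 chr1:135404561-135404860: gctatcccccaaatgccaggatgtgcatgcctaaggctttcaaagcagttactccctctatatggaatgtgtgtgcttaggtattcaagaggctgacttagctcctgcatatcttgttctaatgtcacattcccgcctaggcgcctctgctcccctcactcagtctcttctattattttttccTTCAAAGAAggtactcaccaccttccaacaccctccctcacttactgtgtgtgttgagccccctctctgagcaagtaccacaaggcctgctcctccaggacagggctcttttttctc
Moxd1 chr10:23966189-23966488: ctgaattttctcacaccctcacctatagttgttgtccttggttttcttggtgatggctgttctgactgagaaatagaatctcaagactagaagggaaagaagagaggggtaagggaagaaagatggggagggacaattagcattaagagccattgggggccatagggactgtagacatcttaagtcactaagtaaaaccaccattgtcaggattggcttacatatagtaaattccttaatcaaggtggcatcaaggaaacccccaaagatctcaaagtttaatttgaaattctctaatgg
C6 chr15:4628974-4629273: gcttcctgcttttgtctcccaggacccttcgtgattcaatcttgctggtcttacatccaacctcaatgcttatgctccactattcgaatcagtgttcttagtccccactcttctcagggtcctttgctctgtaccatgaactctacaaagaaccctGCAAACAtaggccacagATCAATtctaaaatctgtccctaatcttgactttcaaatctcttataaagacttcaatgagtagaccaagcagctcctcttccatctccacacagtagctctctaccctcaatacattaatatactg
C4a chr17:34962754-34963053: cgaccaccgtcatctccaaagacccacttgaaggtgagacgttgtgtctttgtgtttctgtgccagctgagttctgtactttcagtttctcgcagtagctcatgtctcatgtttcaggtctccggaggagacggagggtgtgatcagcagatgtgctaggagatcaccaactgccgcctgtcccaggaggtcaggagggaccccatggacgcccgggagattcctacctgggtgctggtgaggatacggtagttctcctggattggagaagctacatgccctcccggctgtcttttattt
Cyp7b1 chr3:18153864-18154163: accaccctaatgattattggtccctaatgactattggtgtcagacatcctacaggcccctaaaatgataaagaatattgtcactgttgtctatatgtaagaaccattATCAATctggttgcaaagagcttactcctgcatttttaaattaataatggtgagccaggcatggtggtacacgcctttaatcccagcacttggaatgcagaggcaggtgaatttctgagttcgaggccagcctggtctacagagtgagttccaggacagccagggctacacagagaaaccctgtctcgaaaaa
Elovl3 chr19:46205664-46205963: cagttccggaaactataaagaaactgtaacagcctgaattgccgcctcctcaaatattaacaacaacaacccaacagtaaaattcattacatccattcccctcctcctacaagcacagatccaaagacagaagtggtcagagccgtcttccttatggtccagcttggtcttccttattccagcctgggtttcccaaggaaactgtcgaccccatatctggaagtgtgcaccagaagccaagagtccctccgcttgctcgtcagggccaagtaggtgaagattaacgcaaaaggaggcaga
Selenbp2 chr3:94502765-94503064: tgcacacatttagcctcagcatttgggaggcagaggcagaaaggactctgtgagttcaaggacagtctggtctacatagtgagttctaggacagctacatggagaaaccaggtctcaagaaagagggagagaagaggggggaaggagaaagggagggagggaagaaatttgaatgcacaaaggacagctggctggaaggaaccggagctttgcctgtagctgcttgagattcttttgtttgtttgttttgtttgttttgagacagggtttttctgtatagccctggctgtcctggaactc

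The Sox13 window held 1 STAT5 match, at bases 184 to 192 of the window. The C6 window held a FOXA match at bases 157 to 163 and an HNF6 or CUX2 match at bases 174 to 179, both on the minus strand. The Cyp7b1 window held 1 HNF6 or CUX2 match at bases 108 to 113, also on the minus strand. The windows at Moxd1, C4a, Elovl3 and Selenbp2 held none of these letters and have no capitals. C4a has a near-identical neighbour, C4b, and Selenbp2 resembles Selenbp1, so reads there could have been lost or split between copies.

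Over all members, the motif shares differed by letters. The intervals for STAT5, HNF4A and HNF1 include the share of all windows, and those for FOXA, CEBP and HNF6 or CUX2 lie above it. The STAT5 letters occurred in 251 of 2779 member windows (9.03%, 95% Wilson interval 8.02 to 10.2), against 8.97% of all 117615 union windows without unknown bases and 8.63% of female-only windows. The FOXA letters occurred in 11.6% of member windows (10.5 to 12.9), 12.5% of female-only windows and 10.3% of all windows. The HNF6 or CUX2 letters occurred in 11.4% (10.3 to 12.7), against 8.79% of all windows, 10.5% of female-only windows and 7.06% of windows from regions of all 4 lists. Outside a distance of 2.5 kb from any transcript start, the same motif was in 11.6% of member windows (10.4 to 13) and in 9.81% of all windows. At that distance FOXA letters were in 11.6% of member windows (10.3 to 12.9) and 11.3% of all windows, and CEBP letters in 12.9% (11.6 to 14.3) and 12.3%, so both intervals include the share of all windows there. Regions of the B6 male list alone had HNF6 or CUX2 letters in 11.4%, CEBP in 12.8% and FOXA in 11.2% of all their windows. In regions of the CAST male list alone the shares were 9.96% (9.42 to 10.5), 12.6% and 11%. CEBP letters were in 12.7% of member windows and 11.4% of all windows. HNF4A and HNF1 letters were rare, in 0.576% and 0.648% of member windows and in 0.556% and 0.666% of all windows. The median GC content of the member windows was 46.3%, the same as in female-only windows, and it was 48% in all windows and 50.3% in regions called in all 4 lists. Member windows held a median of 3 CpG dinucleotides, as did female-only windows and all windows. Regions of all 4 lists had a median of 5, and of 3 at distances over 2.5 kb from a start.

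The members lay in the lower range of enrichment of their lists. In whole liver, a mark carried by fewer cells and a weaker mark in each cell cannot be told apart. Their fold enrichment over background, as the peak caller gives it, had a median of 2.12 in the B6 male list (range 1.26 to 4.83) and 2.18 in the CAST male list (1.10 to 5.75), while all autosomal peaks of those lists had medians of 2.52 and 2.56. By score, the median member stood at percentile 20.6 of the B6 male list and 23.7 of the CAST male list. Only 86 members (3.09%) were above percentile 50 in both lists, and 197 (7.09%) had a fold above 2.57, the higher of the female list medians, in both. A fold of at least 3 in both lists was found at 53 members (1.91%). The male lists ordered the members alike in part. The Spearman correlation of the folds was 0.547 across the members, which are not independent replicates, against 0.894 across regions of all 4 lists, whose folds span a wider range. The fold was higher in CAST males at 1629 members (58.6%), and the ratio between the strains exceeded 1.5 at 57.

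**Figure D1:**
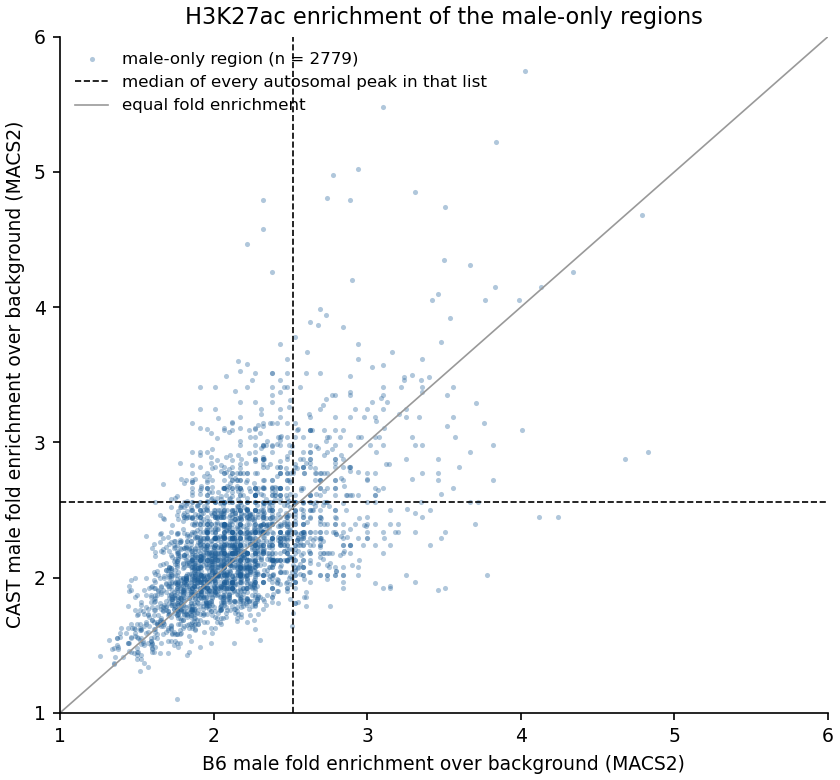
MACS2 fold enrichment of each of the 2779 male-only regions in the B6 male list (horizontal) and the CAST male list (vertical), with 1 point per region. Dashed lines are the medians of all autosomal peaks of the lists (2.52 and 2.56), and most points lie below and to the left of both.

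Selection at a threshold sets the lower edge of this group. The members closest to the calling limit were chr15:7174640-7174977, with a −log10 q-value of 1.41 in the CAST male list, chr4:107750635-107751067, with 1.43, and chr2:25001842-25002441, with 1.44 in the B6 male list. Just outside were regions with both male calls and a single weak female call, and the weakest female calls had −log10 q-values of 1.35 at chr9:110563835-110564446, 1.37 at chr2:67736185-67736679 and 1.39 at chr16:21654842-21655491. In all, 8751 regions were called in both male lists and 1 female list, and at 80 of them the female −log10 q-value was under 2.

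The 12 members that ranked highest by the lower of their 2 percentiles included gene-poor stretches as well as sites beside transcript starts. The first, chr1:135404123-135405735, was 1613 bp wide, with a fold of 4.79 (B6 males) and 4.68 (CAST males) at percentiles 83.5 and 80.8. It lay between genes, nearest to Sox13, a transcription factor, and 1 further member lay on each side of it, at chr1:135359636-135360534 and chr1:135424109-135425638. The nearest female peaks were 13.3 kb away in B6 and 6.89 kb in CAST. The widest member, chr2:149437534-149439957, spanned 2424 bp with folds of 3.99 and 4.05. It lay 206 kb from Cst10, of the cystatin family of protease inhibitors, and 522 kb from any female peak. Members at chr2:149426085-149426580 and chr2:149427013-149428704 stood beside it, the latter with a fold of 4.98 in CAST males and 2.78 in B6 males. An intron of Vmn2r93, a vomeronasal receptor gene, held chr17:18458867-18460639, with folds of 3.84 and 5.22 and no female peak within 411 kb. An intron of Lrp1b, of the low-density lipoprotein receptor family, held chr2:41894467-41896310, with folds of 3.67 and 4.31. The other ranked members had as nearest coding genes Rabepk, 4930522L14Rik, Stk19, Gm10029, Plcxd3, C6, Dhx9 and Smarca2, and 2 of those, at Plcxd3 and C6, lay on the same stretch of chromosome 15.

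The member listed under Stk19 sat upstream of another gene, C4a. C4a encodes the sex-limited protein, a relative of complement C4 named for its androgen-dependent presence in males of some mouse strains. Whether B6 and CAST are among those strains was not examined here. The annotation used here lists C4a (ENSMUSG00000015451.9, chr17:34946037-34960409, minus strand) as a processed transcript, so the search for the nearest coding gene passed it over, and it is named here after its values were seen. The region chr17:34962577-34963139, 2.17 kb upstream of the C4a start and over a transcript start of Stk19, had a fold of 4.03 (B6 males) and 5.75 (CAST males), the highest CAST male fold of any member. A second member, chr17:34960537-34960844, lay 0.128 kb upstream of the C4a start with folds of 3.05 and 3.19. Between the 2 was a peak of the CAST male list alone, with a fold of 3.25. The next union regions on either side were called in all 4 lists, at chr17:34952082-34953146 within C4a and at chr17:34973047-34974944 over the starts of Dom3z and Stk19. The female calls at those shared regions had folds between 2.79 and 6.62, so peaks were called nearby in females.

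The gene nearest to the most members was Moxd1, a homologue of dopamine beta-hydroxylase with strongly male-biased expression in mouse liver. It was nearest to 9 members, and 7 of them formed a run in its introns at chr10:23957983-23978342, 20.4 kb from end to end. This stretch held 9 union regions, 8 peaks of the B6 male list, 8 of the CAST male list and 0 of either female list. The strongest, chr10:23965814-23966749, lay 22.5 kb downstream of the start, with a B6 male fold of 3.50 and a CAST male fold of 4.35. Another, chr10:23974230-23975299, had folds of 3.12 and 2.84, and the remaining 5 had folds of 1.97 to 2.38 (B6 males) and 1.89 to 2.67 (CAST males). The female peak closest to any of these 7 was 9.04 kb away, whereas the other 2 members nearest to Moxd1 lay past its far end, each within 1 kb of a female peak.

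Cyp7b1, the oxysterol hydroxylase of the alternative bile acid pathway, was nearest to 8 members, and 6 members lay in the gene or within 20 kb. Female peaks were called between them, as they were not in the Moxd1 run. The run of 5 members at chr3:18112767-18168713 held 20 union regions, of which 13 had a female call and 4 were called in all 4 lists. Its members had folds of 1.76 to 2.31 (B6 males) and 1.79 to 2.27 (CAST males). The member 10.3 kb upstream of the start, chr3:18153643-18154210, was 0.110 kb from a female peak.

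C6, a component of the terminal complement complex, had a run of 4 members at chr15:4625141-4675351. The region chr15:4628857-4630010, 47.2 kb upstream, had folds of 3.09 (B6 males) and 3.33 (CAST males). Its neighbour chr15:4627063-4628573 had folds of 2.99 and 2.38, and chr15:4625141-4625599, the weakest, had 1.77 and 1.94. The female peak closest to any of these 3 regions was 37.9 kb away. The fourth member, chr15:4674740-4675351, lay 1.82 kb upstream of the C6 start with folds of 2.28 and 2.54, and a B6 female peak was 1.03 kb from it. The run is shown beside those of Moxd1, C4a and Elovl3.

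**Figure D2:**
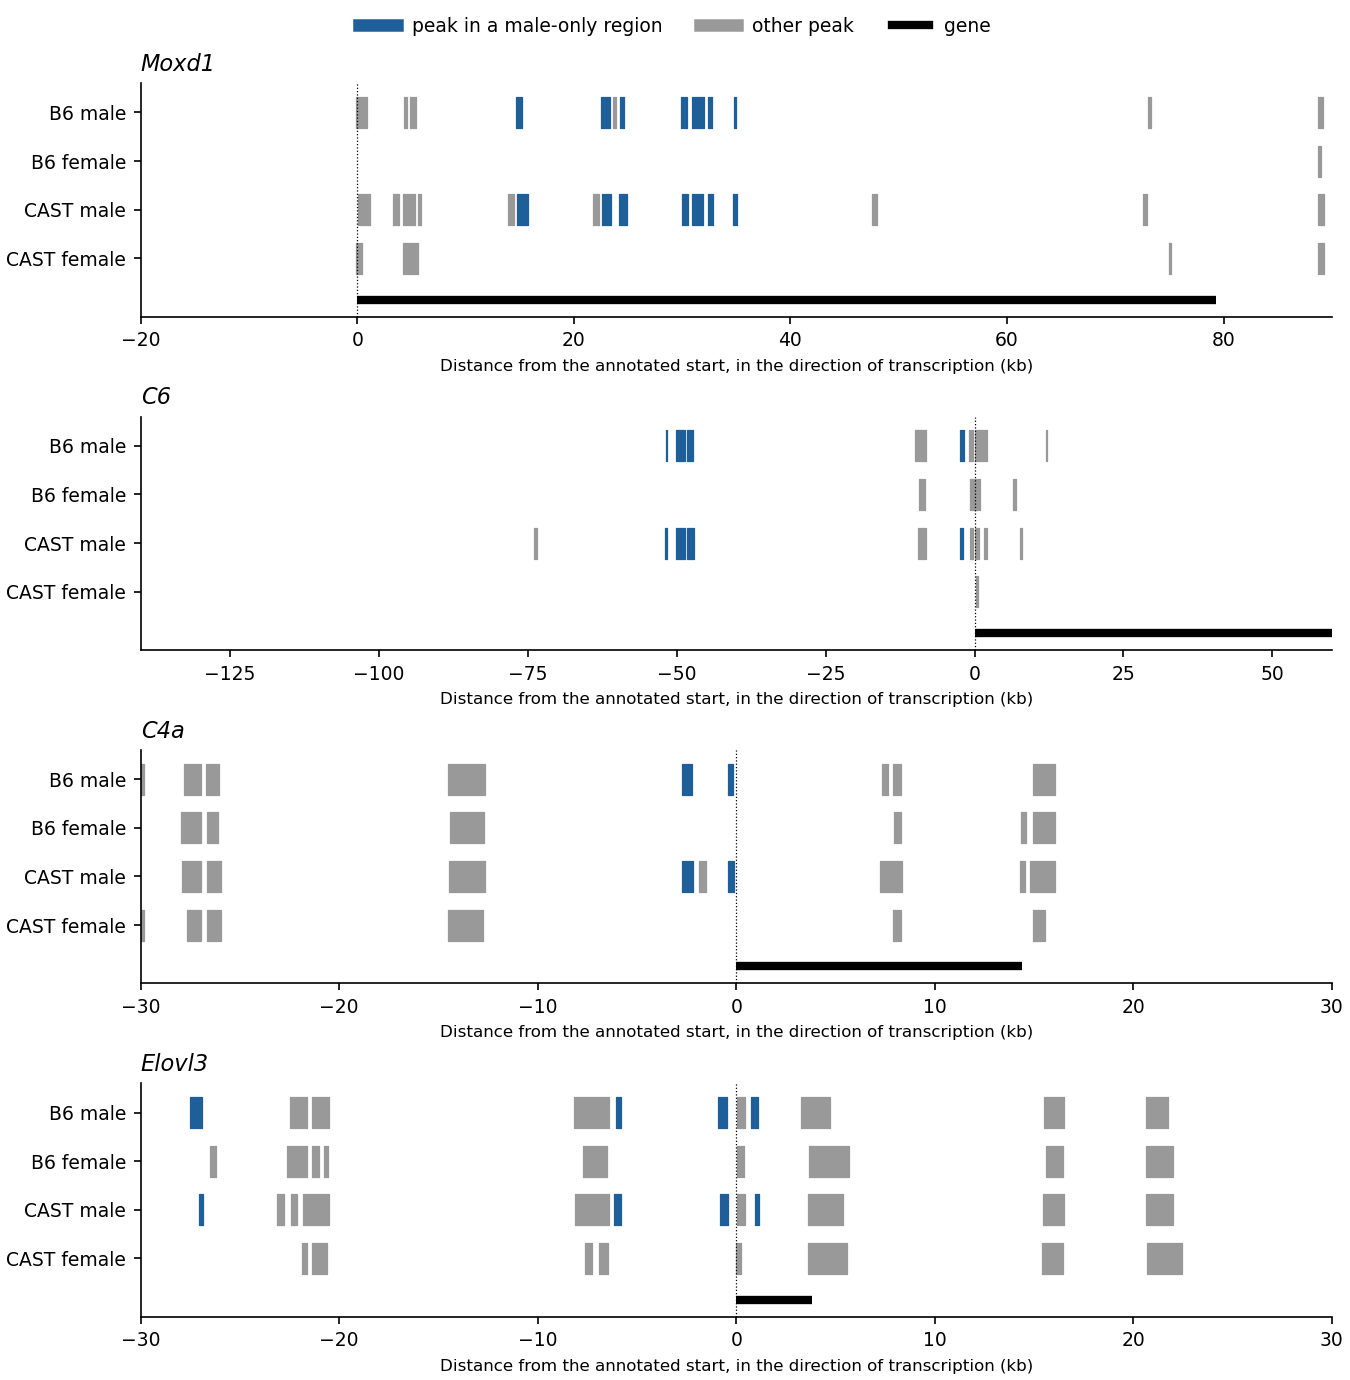
Peaks of the 4 lists at Moxd1, C6, C4a and Elovl3, plotted by distance in kb from the annotated start in the direction of transcription; blue bars are peaks in male-only regions, grey bars are other peaks, and the black line is the gene, which runs past the panel at C6. At Moxd1 the 7 blue regions have no female bar between them, whereas at Elovl3 the 3 blue regions nearest to the start sit at the edges of peaks present in both sexes.

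Elovl3, an elongase of very long chain fatty acids, showed a different arrangement. It belonged to a run of 5 members at chr19:46173048-46207547, of which 3 were within 20 kb of the gene. Those lay 5.79 kb upstream, 0.408 kb upstream and 0.729 kb downstream of the start, with folds of 1.65 to 2.21 (B6 males) and 1.69 to 1.99 (CAST males). Each was between 0.299 and 0.382 kb from a female peak, so all 3 bordered chromatin that was also called in females.

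Nearness to a female call was common among the members. The gap to the nearest female peak of either strain had a median of 1.96 kb, and it was at most 1 kb at 1100 members (39.6%), of which 753 lay within 0.5 kb. It was over 5 kb at 858 (30.9%) and over 20 kb at 237 (8.53%). Members within 0.5 kb had a median width of 466 bp and median folds of 2.04 and 2.09 in the B6 and CAST male lists, and members beyond 20 kb had 615 bp and 2.43 and 2.56. Read coverage at these members in females was not analysed here, so whether they differ from the adjoining female peak in more than its called boundary was not tested. Among the 86 members above percentile 50 in both lists, 21 were within 1 kb of a female peak and 49 were beyond 5 kb. The 49 had a median width of 1040 bp and median folds of 3.34 and 3.46. A region called in all 4 lists lay within 5 kb of 1100 members (39.6%, 37.8 to 41.4), against 42.6% (40.0 to 45.2) of female-only regions. No such region was within 50 kb of 275 members (9.90%).

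**Figure D3:**
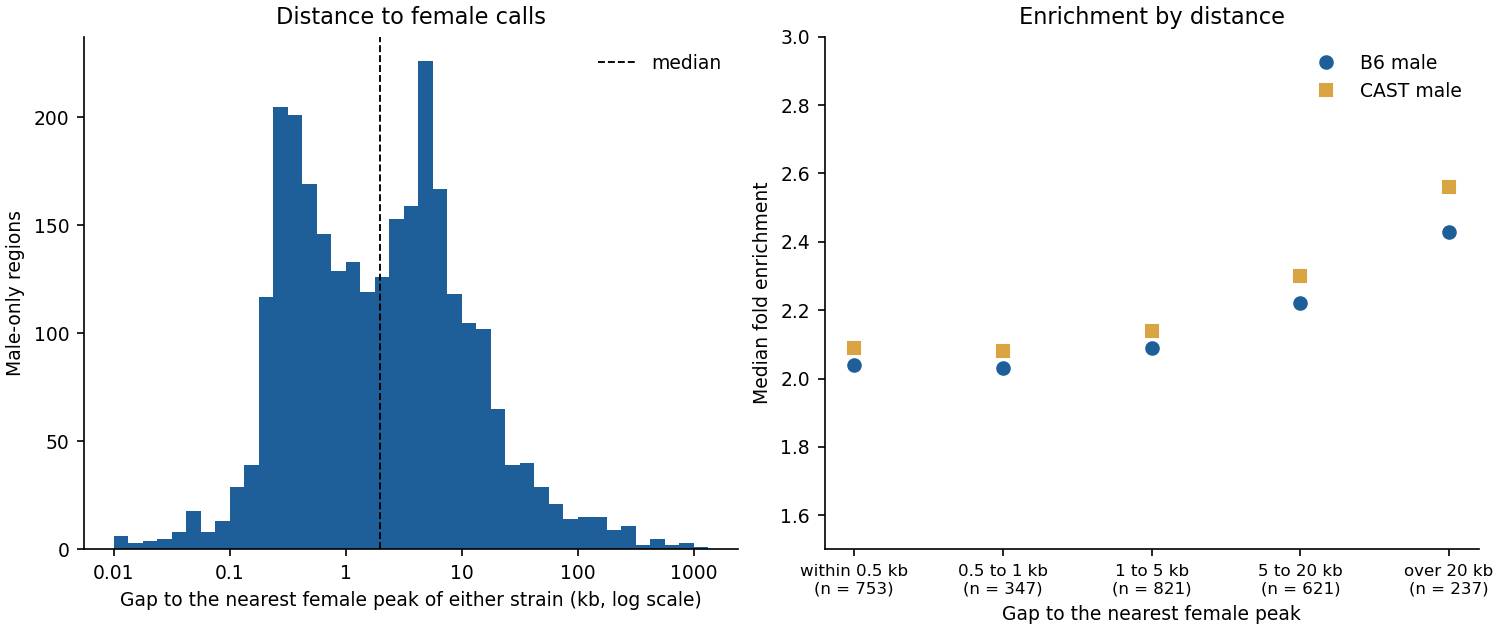
Left, number of male-only regions by the gap to the nearest female peak of either strain, on a log scale in kb, with the median of 1.96 kb dashed and gaps under 0.01 kb drawn in the first bar. Right, median fold enrichment in the B6 male and CAST male lists by that gap; the medians are 2.04 and 2.09 within 0.5 kb and 2.43 and 2.56 beyond 20 kb.

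Most members were distal. Over 2.5 kb from any annotated transcript start lay 2380 of 2779 (85.6%, 84.3 to 86.9), against 84.5% of female-only regions, 62.8% of regions of all 4 lists and 76.1% of all union regions. Regions of the B6 male and CAST male list alone had distal shares of 86.2% and 87%. The share of the members exceeded that of all union regions on 19 of 19 autosomes and that of female-only regions on 13. Of the members, 1245 (44.8%) were intronic, 930 (33.5%) intergenic, 399 (14.4%) within 2.5 kb of a start and 205 (7.38%) over an exon farther away. The median distance to a coding start was 24.2 kb, with 804 members (28.9%) over 50 kb away and 158 (5.69%) over 200 kb away. The members were narrow, with a median union width of 507 bp (quartiles 388 and 684) compared with 468 bp in the female-only class and 1361 bp in regions of all 4 lists. Together they covered 1.61 Mb. The width follows in part from the rule, since a region with peaks in 2 lists is at least as wide as the wider of them. Regions called in a single male list had medians of 305 bp (B6) and 292 bp (CAST).

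**Figure D4:**
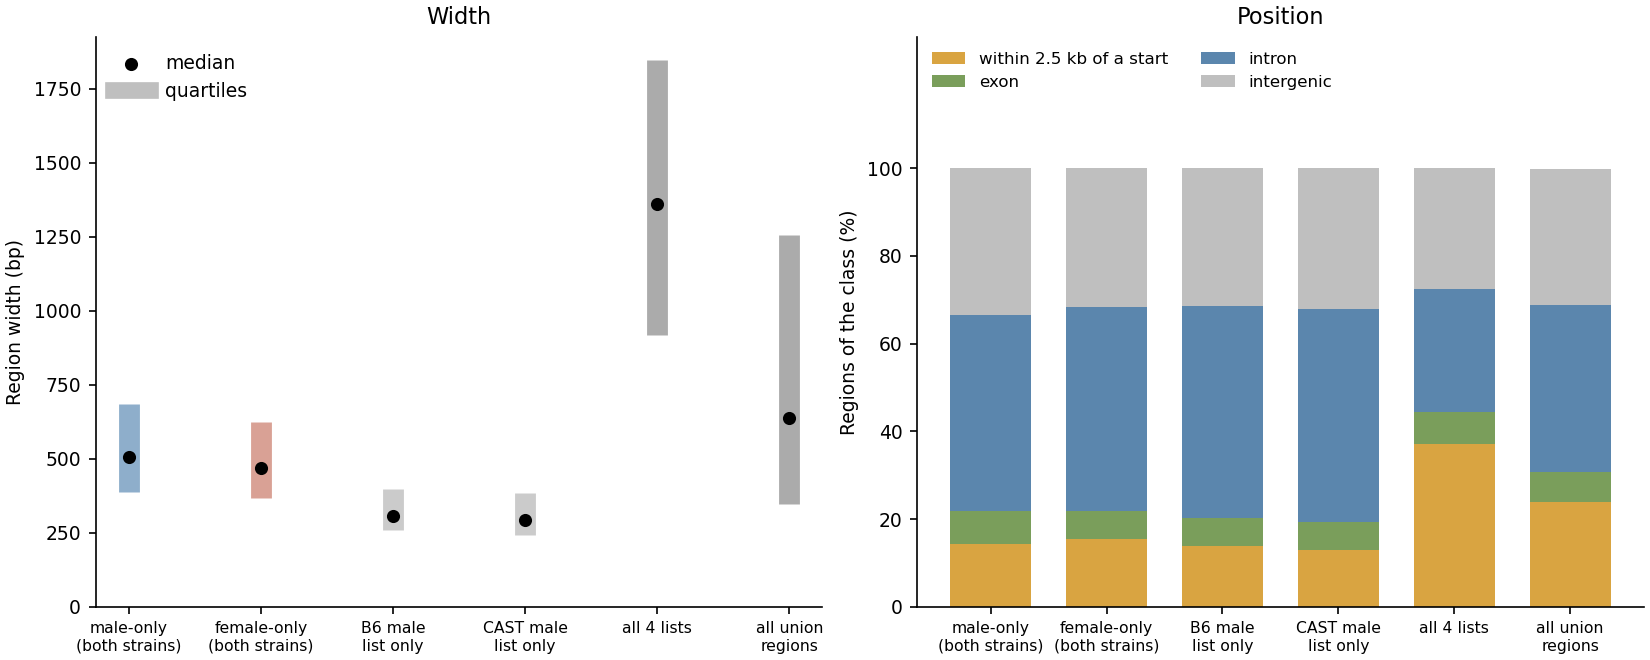
Width in bp (left, median and quartiles) and position (right, per cent of regions within 2.5 kb of a transcript start, over an exon, in an intron or between genes) of male-only regions, female-only regions, regions of a single male list, regions of all 4 lists and all union regions. The male-only median is 507 bp, and 14.4% of male-only regions lie within 2.5 kb of a start.

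Members over or beside coding starts were few. Only 34 (1.22%) overlapped a coding start and 118 lay within 1 kb of one. Of the 399 members within 2.5 kb of any start, 164 were within 1 kb of a female peak. The highest ranked of the 399, 2.04 kb upstream of Rabepk, a Rab effector (chr2:34657469-34658062, folds of 2.67 and 2.77), was 0.497 kb from one. The next, over the start of 4930522L14Rik (chr5:110180416-110180714, folds of 4.34 and 4.26), was 44.4 kb from any. Members over starts of Scn1a and Cttnbp2, a sodium channel and a cortactin-binding protein, were 152 kb and 327 kb from any. Several others sat a short distance from a peak called in females. Examples are regions at Trim24, a transcriptional cofactor (chr6:37820247-37820519), Fah, the last enzyme of tyrosine breakdown (chr7:91754512-91754769), Edem1 and Derl1, both of the degradation of misfolded proteins in the endoplasmic reticulum (chr6:108777715-108778283 and chr15:57724318-57724566), and Gjb2, a gap junction protein (chr14:57723830-57724110). They were 249 to 569 bp wide, had folds of 1.86 to 2.67 (B6 males) and 1.73 to 2.62 (CAST males), and were 0.239 to 0.412 kb from female peaks. Mep1b, which encodes a subunit of the metalloprotease meprin, differed from these. A member 2193 bp wide, chr18:21230006-21232198, covered its start with folds of 2.92 (B6 males) and 2.40 (CAST males), and the nearest female peaks were 47.4 kb away in B6 and 48.1 kb in CAST.

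Some members lay close together. Another member lay within 50 kb of 875 of them (31.5%, 29.8 to 33.2), in 386 runs, of which 65 had at least 3 members and 24 at least 4. The share of regions with a neighbour of their own class was 17.3% for female-only regions. It was 55.8% and 68.4% for regions of the B6 male and CAST male list alone, 95% for regions of all 4 lists and 98.6% for all union regions. This share depends on the number of regions in a class, so the shares cannot be compared directly. Whether members cluster beyond their density was not tested. Besides Moxd1, a run of 7 lay at chr1:21288826-21325756, between Gm4956 and Khdc1a, with folds of 1.70 to 2.49 (B6 males) and 1.75 to 2.46 (CAST males). Unlike the Moxd1 run, it held female calls, at 6 of 14 union regions, with 7 peaks of the B6 female list and 1 of the CAST female list. Runs of 6 lay at chr6:58603101-58690594, by Abcg2, an efflux transporter of the canalicular membrane, and at chr11:11756719-11846790, by Ddc, the decarboxylase of aromatic amino acids, and Grb10, a growth factor receptor adaptor. Other runs of 5 lay by Slc30a1, a zinc exporter, and by Ttc39c and Cabyr. The Abcg2 run held 17 union regions, none called in all 4 lists or in the B6 female list, with 4 peaks of the CAST female list. Its member with the highest CAST male fold, chr6:58643840-58644740, had a fold of 2.68 (B6 males) and 3.87 (CAST males). The Ddc run was different, with 15 of 25 union regions also called in females.

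By nearest coding start the members were spread over 2152 genes, of which 1701 had 1 member and 111 had at least 3. After Moxd1 and Cyp7b1 came Zbtb20, a zinc finger repressor, with 7, then Lpp, a focal adhesion protein, and Myc, a growth-promoting transcription factor, with 6 each. The members assigned to Myc lay 52.0 to 763 kb from it. Abcg2, Ddc and Egfr had 5, in a tie of 10 genes with Fam98a, Gm4956, Nfib, Nr3c2, Rere, Rybp and Thrb. The autosomal share of union regions that were members ran from 1.91% on chromosome 18 to 2.82% on chromosome 16, and members outnumbered female-only regions on 19 of 19 autosomes, by 1.49 to 2.89 times. The lists differ in length, with 78693 (B6 male), 80820 (B6 female), 88958 (CAST male) and 83255 (CAST female) autosomal peaks. With lists of equal length there were 2388 members, and female-only regions were not counted that way. In the study's count by fold change between the sexes, a different measure, male-biased and female-biased peaks shared by the strains were closer in number.

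Genes known for male-biased liver expression had members at a share above that of coding genes at large. Of 38 such genes on the autosomes, 19 (50%, 34.8 to 65.2) had a member in the gene or within 20 kb. The share was 11.6% of 21418 autosomal coding genes and 16.1% of the 12365 with a region of all 4 lists within 2.5 kb of a start. The list was drawn from textbook knowledge with earlier results of these data known. It holds genes that the study showed as male-biased in these same livers, among them Moxd1, C6, Elovl3, Gstp1 and Nudt7. The 50% is therefore a description and not independent support. Female-only regions were found at 2 of the 38 (5.26%), near the 6.43% of all autosomal coding genes. Neighbouring genes of a family can share a member and are not independent. The 19 genes carried 43 distinct members, with median folds of 2.07 (B6 males) and 2.33 (CAST males). Of these members, 13 were within 1 kb of a female peak and 14 were over 5 kb from any.

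After Moxd1 with 7 and Cyp7b1 with 6, Egfr, the epidermal growth factor receptor, had 5 members, 1 of them 12.1 kb upstream of its start and the others within the gene, with folds of 1.38 to 2.08 (B6 males) and 1.49 to 2.25 (CAST males). Egfr also had 2 female-only regions, and its members lay 0.172 to 2.36 kb from a female peak. Nox4, an NADPH oxidase that makes hydrogen peroxide, had 3 members. One of them, over an exon at chr7:94518483-94520606, was 2124 bp wide, with folds of 3.51 (B6 males) and 2.34 (CAST males) and no female peak within 92.6 kb. Scara5, a ferritin receptor, had 3, with folds of 1.99 to 2.31 (B6 males) and 1.59 to 2.48 (CAST males). Selenbp2, a selenium-binding protein, had 2, of which chr3:94502747-94503103 had a fold of 2.17 (B6 males) and 3.53 (CAST males) and chr3:94506792-94507256 had 2.01 and 3.25. At both of these the B6 male peak was weak, at percentiles 14 and 6.28 of its list, and the CAST male peak stood at 61.0 and 53.8.

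Hsd3b5, a steroid dehydrogenase family member of male liver, had 2 members, with folds of 2.36 and 1.77 (B6 males) and 2.40 and 2.33 (CAST males). Nudt7, a peroxisomal coenzyme A hydrolase, also had 2. Gstp1 and Gstp2, neighbouring glutathione S-transferases, shared 2, so that pair counts the same regions. The genes with 1 member were C6 and C8a of the complement lytic complex, the P450 Cyp2d9, Keg1, the urinary protein gene Mup21, the anion transporter Slco1a1, and the glucuronosyltransferases Ugt2b1 and Ugt2b38. The Mup21 member, chr4:61819909-61820324, lay 8.01 kb upstream of its start with folds of 3.56 and 3.19, and the Ugt2b38 member, chr5:87825773-87826111, had 3.36 and 2.98. Both genes belong to families of close copies, and how many reads map uniquely there was not tested. No member was found at the other 19 genes, among them Bcl6, C8b, C9, Cyp4a12a, Hsd3b2, Susd4 and several Mup genes. Mup1, Mup7 and Mup12 had no peak in any of the 4 lists. At Bcl6, the male-biased repressor itself, 7 regions were called in all 4 lists and 1 was female-only.

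**Figure D5:**
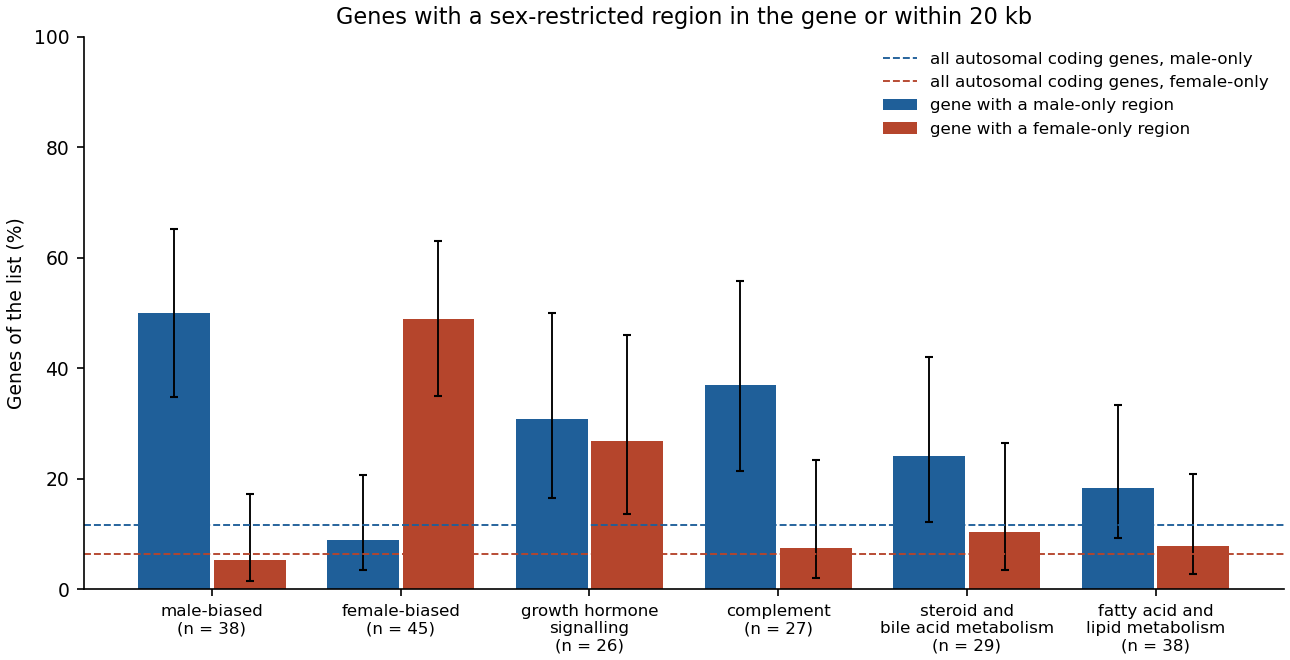
Per cent of genes in each list with a male-only region (blue) or a female-only region (red) in the gene or within 20 kb; error bars are 95% Wilson intervals and dashed lines are the shares of all autosomal coding genes (11.6% and 6.43%). Male-only regions are at 50% of the male-biased list and 8.89% of the female-biased list.

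In the female-biased list, members lay at 4 of 45 genes (8.89%, 3.51 to 20.7), near the 11.6% of all autosomal coding genes. Female-only regions lay at 22 (48.9%, 35 to 63), beside 6.43% of all autosomal coding genes. The 4 genes with a member were Cux2, Cyp2c39, Prlr and Trim24. Cux2, the female-specific repressor, had 1 member and 7 female-only regions. Its member, chr5:122308383-122308898, lay 191 kb downstream of its start with folds of 2.18 and 2.65. The member at Cyp2c39, a P450, was chr19:39626544-39627077, with folds of 2.74 and 3.04 and no female peak within 39.6 kb.

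Among 26 genes of growth hormone signalling, 8 (30.8%, 16.5 to 50) had a member, beside 11.6% of all autosomal coding genes and 16.1% of those with a region of all 4 lists at a start. Besides Egfr these were Ghr, the growth hormone receptor, with 3, Igf1, the circulating growth factor that the hormone induces, with 2, and Cux2, Irs2, Prlr, Stat3 and Stat5b with 1 each. The 15 members had folds of 1.38 to 2.29 (B6 males) and 1.49 to 2.66 (CAST males), 7 were within 1 kb of a female peak and 0 were over 5 kb from one. Female-only regions were at 7 of the 26 genes (26.9%, 13.7 to 46.1), beside 6.43% of all coding genes. Many of these genes are long and hold many peaks: 57 peaks of the B6 male list and 58 of the B6 female list lay at Ghr.

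Complement genes had members at 10 of 27 (37.0%, 21.5 to 55.8). The share was 11.6% of all autosomal coding genes and 16.1% of those with a region of all 4 lists at a start. Female-only regions lay at 2 complement genes (7.41%), near the 6.43% of all coding genes. The 10 genes with a member were C1ra, C1rl, C1s, C2, C4b, C6, C8a, Cfi, Hc and Serping1. They carried 8 distinct members, because the neighbours C1ra, C1rl and C1s share chr6:124477413-124477848, which had folds of 3.22 and 3.41 but lay 0.140 kb from a female peak. Among 29 genes of steroid and bile acid metabolism 7 (24.1%, 12.2 to 42.1) had a member. They included Cyp27a1, the sterol side chain hydroxylase that precedes Cyp7b1 in the alternative pathway, with 2. Among 38 genes of fatty acid and lipid metabolism 7 (18.4%, 9.22 to 33.4) had a member, and 10 of those 11 members were within 1 kb of a female peak. The interval of the lipid list includes the background of 11.6%. The intervals of the steroid and lipid lists both include the 16.1% of genes with a region of all 4 lists at a start.

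The tissue of the lists was checked at the starts of marker genes. Of 10 hepatocyte markers 9 had a peak within 1 kb of a start in every list, the exception being Serpina1a. Endothelial markers had peaks at 4 of 4 genes, and Kupffer cell markers at 0 of 5 genes in every list but that of B6 females, with 1. Stellate cell markers had peaks at 1 of 4 genes, and at 2 in CAST females, where Lrat was also called. Cholangiocyte markers had 2 of 4 in every list, and lymphocyte markers 1 of 4, Ptprc, in every list but that of CAST females, with 0. Markers of tissues outside the liver had 0 of 6 in every list. Members lay in or within 20 kb of 1 hepatocyte and 1 endothelial marker and of none of the Kupffer cell, stellate, cholangiocyte or lymphocyte markers. Whether cell composition differs between the sexes was not tested.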

How the data were processed

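H3K27ac ChIP-seq of 20 livers and 4 inputs is held as 4 narrowPeak lists. Per the labels and the study's methods, reads were aligned with Bowtie2, peaks were called with MACS2 on reads combined over the 5 livers of a group, and coordinates are on mm9. The authors deposited, for each peak, a score, a fold enrichment (a linear ratio over background), a −log10 p-value and a −log10 q-value, used here as deposited. The study's methods give an average depth over its libraries, but the lists hold no read counts per liver, so values here carry no interval from depth.

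Peaks overlapping by 1 bp or more on the 19 autosomes were merged. A region takes each list's values from its best-scoring peak, and percentiles rank a list's peaks by score. Genes, exons and starts came from GENCODE vM1 and bases from NCBIM37, the same build. Repeat content was not computed, because the genome file is not soft-masked. Promoter regions lie within 2.5 kb of any transcript start, and neighbours within 50 kb. With 1 pooled list per group, no test between conditions was made. Shares have 95% Wilson intervals. Merging, neighbour and distance steps were tested on simulated data.

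Named regions and genes were drawn from the 12 best-ranked members with a fold of at least 1.5 in both male lists, the 5 widest and the 8 runs with the most members. Also used were the 8 coding genes nearest to the most members (the limit falls within a tie of 10 genes, all named), listed genes with a member, and the 3 regions just inside and just outside the threshold. Not all of the widest members and listed genes are named. C4a, the promoter examples, Grb10 and the listed genes without a member were named after values were seen. The members, lists, motifs and alternatives were chosen with earlier results of these data known. Python 3.11.15, pandas 2.3.3, numpy 2.4.6, scipy 1.17.1 and matplotlib 3.10.9 were used.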

Additional observations from a re-analysis of the deposited data

How the results depend on the processing

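No paired analysis was possible because each list pools the 5 livers of its group, and leaving out a replicate was not possible for the same reason. Of 62 alternative values, 35 stayed within 1.5 times of a count or within the interval of a share or median. The number of members, 2779, was 1828 when male peaks had to overlap reciprocally by 50% without merging, 1679 with no female peak within 1 kb and 858 with none within 5 kb, an alternative chosen after seeing the data. The distal share, 85.6%, was 92.0% with coding starts only and 92.2% with a limit of 1 kb. The median width, 507 bp, was 539 bp with a −log10 q-value of at least 3 in all lists, 519 bp with it in the male lists only, 532 bp with lists of equal length, 629 bp when peaks up to 500 bp apart were merged, 358 bp under reciprocal overlap, and 530 bp or 550 bp with no female peak within 1 kb or 5 kb. The share with another member within 50 kb, 31.5%, was 29.6%, 26.5%, 28.9%, 24.7%, 22.4%, 25.3% and 20% under the same 7 settings in that order, and 11.7% within 10 kb and 60.7% within 200 kb. With fewer members, neighbours become fewer by construction. The share within 5 kb of a region of all 4 lists, 39.6%, was 31.0% with peaks merged over 500 bp, 42.6% under reciprocal overlap, 25.4% with no female peak within 1 kb and 0.699% with none within 5 kb, where it is nearly excluded by construction. The male-biased genes with a member, 19 of 38, were 12 within 2.5 kb of the gene. With no female peak within 5 kb they were 8 of 38 (21.1%), beside 3.66% of all coding genes, and with none within 1 kb 14 (36.8%), beside 7.39%. By the outermost start within 20 kb, which takes out gene length and was added after seeing the data, they were 15 (39.5%), beside 5.91%. Leaving out the regions at gaps in the female peak numbers, 25 members, gave 18. Where these values moved, the cause was not tested unless stated.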

Other observations

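On the X chromosome, which the autosomal rule leaves out, 28 of 1732 union regions were called in both male lists and neither female list, and 59 were called in both female lists and neither male list. On the autosomes the order was the reverse, 2779 against 1413. No test was made, and males have a single X, so the classes on X are not comparable with those on the autosomes.

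Female-only regions also lay among the members. A female-only region was within 50 kb of 359 members (12.9%), and a member was within 50 kb of 315 female-only regions (22.3%). The members of runs of at least 4 had median folds of 2.07 (B6 males) and 2.23 (CAST males), and members with no neighbour within 50 kb had 2.12 and 2.18.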
